A study of Mus musculus with 9 samples.

Results

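Pressure overload was compared with a sham operation across the mouse heart transcriptome. Of 21989 gene symbols in the deposited expression table, 11044 reached an FPKM of 1 in 3 or more of the 6 sham and TAC libraries and were tested, and the other 10945 were not. FPKM is the number of sequenced fragments scaled to gene length and to library depth, so levels of different genes can be set side by side. Of the tested symbols, 332 were predicted genes or clone names and were counted but not named.

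The sham group held 3 male C57BL/6J mice that had a sham operation and were given distilled water. The TAC group held 3 such mice that had the operation labelled TAC, usually read as transverse aortic constriction, and were also given distilled water. All mice were 18 to 20 weeks old, and RNA was taken from heart tissue with no chamber named, so atrial and ventricular muscle could not be separated. Neither a transgene nor another agent was named for these groups, and the labels gave no time after the operation, no measure of the pressure load or heart function, and no day or batch. A further 3 TAC mice, treated with Lingguizhugan decoction (LD), entered only the shared estimate of the spread. By its title the study asked about MAPK and AKT signalling in heart failure.

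A band around the aorta raises the load against which the left ventricle ejects. Heart muscle cells answer a raised load by growing, by switching on genes of the fetal and stretched heart, and by changing fuel use and ion channels, while fibroblasts can lay down collagen and other matrix between the muscle cells. These programmes are background from textbook knowledge and gave the gene lists used here, which were written with earlier results of these data known.

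The 6 libraries held between 8.4 and 18.1 M fragments, and 3 fragments of a gene of 1 kilobase equalled an FPKM between 0.166 and 0.357. Depth was uneven between the groups. TAC replicates 1 and 3 held 8.4 and 8.96 M, TAC replicate 2 held 14.9 M and the sham libraries 14.5 to 18.1 M. Low values and zeros are less sure in the shallow libraries. Libraries correlated between 0.912 and 0.974 across genes (Pearson's r of log2 values, which are not independent points). TAC replicate 3 stood apart: the first principal component held 39.3% of the variance and placed it at 51.3, against -26.5 to 7.1 for the other 5. The second held 22.7% and placed TAC replicate 2 at -40.7, against -2.3 to 18.0 for the others. Neither component separated the groups: on the first, TAC replicate 1 at -26.5 lay beside sham replicate 3 at -25.5. TAC replicate 1 correlated at 0.950, 0.959 and 0.964 with sham replicates 1, 2 and 3. With TAC replicates 2 and 3 it correlated less, at 0.945 and 0.912. Summed haemoglobin FPKM was 1.94% of the total in TAC replicate 2, and no other library exceeded 0.629%. Y-linked genes were measured in all 6 libraries, with summed FPKM between 68.8 and 127. Heart muscle genes dominated every library, and the 10 most abundant genes, led by myoglobin (Mb), took between 14.5% and 16.7% of the FPKM sum. In TAC replicate 3 the median gene of under 600 bases lay 0.34 below the sham mean on the log2 scale and the median gene of 8000 bases or more lay 0.19 above it. TAC replicate 2 leaned the other way, by 0.15 and -0.16. Results that rest on short genes are therefore given by library.

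**Figure D1:**
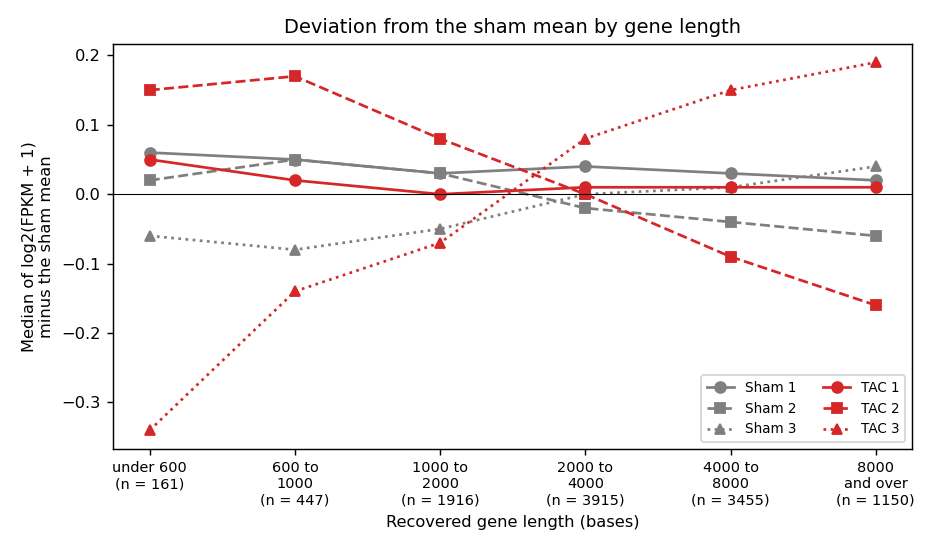
Median deviation from the sham mean on the log2(FPKM + 1) scale (vertical axis) by recovered gene length in bases (horizontal axis, with the number of genes in each bin), one line for each sham library in grey and TAC library in red. TAC replicate 3 runs from -0.34 in the shortest genes to 0.19 in the longest, TAC replicate 2 from 0.15 to -0.16, and TAC replicate 1 stays between 0.00 and 0.05.

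No gene passed an adjusted p under 0.05 by limma, and the smallest adjusted p was 0.0803. Log2 differences are TAC minus sham on the log2(FPKM + 1) scale with limma's standard error (SE), and p-values are unadjusted unless said otherwise. At p under 0.05, 316 genes (2.86%) were higher in TAC and 286 (2.59%) lower, 602 in all (5.45%). The lowest TAC library lay above the highest sham library for 584 genes (5.29%), and the highest TAC library lay below the lowest sham library for 499 (4.52%), 1083 in all (9.81%). Of these, 59 (0.534%) were at least 2-fold higher and 44 (0.398%) at least 2-fold lower. Shares near 5.45% at a threshold of 0.05 also arise when groups do not differ. The same holds for shares near 5.29% and 4.52% without overlap, with 3 libraries against 3. A lack of overlap alone therefore does not set a gene apart. The adjusted threshold was met by 0 genes (0%) in either direction, so every gene below is described by its values and none is called changed. The median difference over all tested genes was 0.00, its quartiles were -0.21 and 0.21, and 50.0% of genes lay above 0. Among the tested genes, 24 passed the filter through the TAC libraries alone, with every sham library under 1 FPKM, and 37 through the sham libraries alone. Their groups could not overlap by the way they were chosen, which is said where such a gene is named. Lists are read against these shares. Single libraries moved the counts: without TAC replicate 1, 14 genes met the adjusted threshold and 574 were higher and 554 lower at p under 0.05. Without sham replicate 3 these were 1, 183 and 189, without sham replicate 1 they were 0, 277 and 170, and without TAC replicate 2 they were 1, 270 and 252. In bulk tissue, fewer cells of a type and less RNA per cell cannot be told apart.

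**Figure D2:**
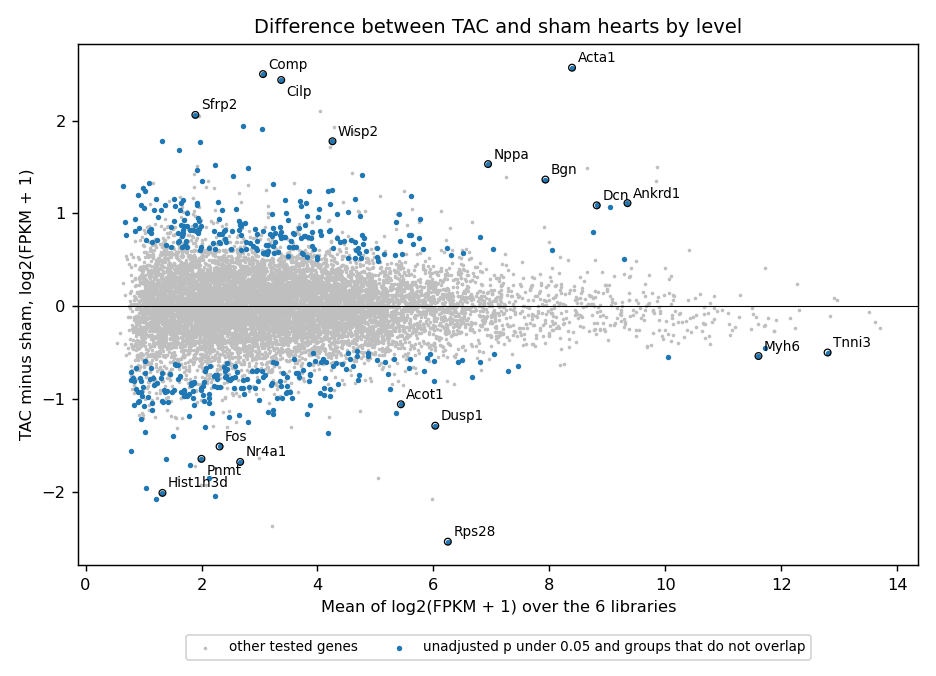
Mean log2(FPKM + 1) over the 6 libraries (horizontal axis) against the TAC minus sham difference (vertical axis) for all 11044 tested genes. Blue points have an unadjusted p under 0.05 and groups that do not overlap. Acta1 stands out among abundant genes at 2.57, Comp and Cilp among genes of low level at 2.5 and 2.44, and Rps28 lies lowest of the labelled genes at -2.54.

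The 2 promoters below are shown because their genes, both of the stretched heart muscle programme, had all TAC libraries above all sham libraries. They are the 250 bases before the RefSeq start on GRCm38.p6, read 5′ to 3′ on the gene's strand. Acta1 lies on the minus strand at chr8:123894776-123895025 and Ankrd1 on the minus strand at chr19:36119845-36120094. Capitals mark a CArG box (the serum response factor element), the MCAT element CATTCC and the TATA box TATAAA, each searched on both strands, so that GGAATG is an MCAT element on the other strand.
Acta1: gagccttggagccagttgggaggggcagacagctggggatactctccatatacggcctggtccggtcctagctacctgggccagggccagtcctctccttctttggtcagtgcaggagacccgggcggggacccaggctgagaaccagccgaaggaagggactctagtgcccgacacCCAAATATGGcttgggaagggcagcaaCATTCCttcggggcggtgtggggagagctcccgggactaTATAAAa
Ankrd1: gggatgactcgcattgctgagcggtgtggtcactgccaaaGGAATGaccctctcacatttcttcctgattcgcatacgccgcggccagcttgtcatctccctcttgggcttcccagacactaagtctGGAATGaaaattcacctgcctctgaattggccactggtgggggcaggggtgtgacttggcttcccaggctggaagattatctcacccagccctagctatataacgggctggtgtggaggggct
In Acta1 the CArG box begins 73 bases before the RefSeq start, the MCAT element 46 and the TATA box 7. GENCODE M21 starts Acta1 at chr8:123894751, downstream of the RefSeq start, so these distances depend on the start used. In Ankrd1, MCAT elements begin 210 and 123 bases before the start, with no CArG box or TATAAA in this window. Across the 20 list members with a promoter entry, 4 (20%) held a CArG box, 5 (25%) an MCAT element and 7 (35%) a TATA box, against 1.24%, 10.3% and 6.28% of 8518 promoters of tested genes. A match of letters is a description and not a bound site.

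Acta1, skeletal alpha-actin, which the fetal heart uses and the adult mouse heart largely replaces with cardiac actin, measured 133, 195 and 99.1 FPKM in the sham libraries and 377, 980.4 and 1475 in the TAC libraries. All 3 TAC hearts lay above all sham hearts, with the lowest TAC value in replicate 1, and the log2 difference was 2.57 ± 0.44 (limma adjusted p = 0.112). Nppa, the atrial natriuretic peptide gene, measured 59.7, 68.8 and 88.4 in sham and 91.5, 220.0 and 447 in TAC (1.53 ± 0.49, limma adjusted p = 0.776). Its lowest TAC value exceeded the highest sham value by a small margin. Nppb, which encodes B-type natriuretic peptide, overlapped between groups, at 22.5, 37.3 and 26.6 against 35.8, 72.4 and 71.5 (0.99 ± 0.43). Ankrd1, a titin-bound and nuclear protein induced by stretch, measured 336, 604 and 427 in sham and 609, 814 and 1763 in TAC (1.11 ± 0.36, limma adjusted p = 0.776), where TAC replicate 1 was barely above the highest sham library.

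Xirp2, an actin-binding protein of the intercalated disc, measured 33.5, 31.6 and 29.2 in sham and 41.4, 56.3 and 164 in TAC (1.19 ± 0.42). The TAC libraries were again all above sham, and replicate 3 was far above the other pair. Enah, an actin regulator at cell junctions that was chosen after its values were seen, measured 8.38, 10.9 and 8.49 in sham and 13.4, 12.9 and 23.4 in TAC. Of 23 tested genes of the fetal and stretch programme, 18 lay above 0, 8 were higher at p under 0.05 and 7 were higher without overlap, while none was lower by either count. The median was 0.18, and it was 0.28, 0.37 and 0.31 without TAC replicate 1, TAC replicate 2 and sham replicate 3. A few members had large differences and most had small ones. The list's mean deviation from sham was 0.21, 0.44 and 0.80 in the TAC libraries against -0.05, -0.01 and 0.06 in sham.

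Of the myosin heavy chains, Myh6 was lower in TAC, and Myh7 did not differ beyond its error. Myh6, the fast adult isoform, measured 3932, 3917 and 3448 in sham and 2673, 2240.0 and 2896 in TAC, with no overlap and a difference of -0.54 ± 0.24. Myh7, the slow fetal isoform, measured 257, 241 and 328 against 326, 236 and 383 and overlapped (0.18 ± 0.33). Its exons overlap those of the antisense RNA Mhrt. Tnni3, cardiac troponin I and among the 10 most abundant genes, measured 8566, 9379 and 7578 in sham and 5823, 5836 and 6338 in TAC (-0.50 ± 0.22), so the highest TAC library was below the lowest sham library.

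Most of the sarcomere lay near 0, with a median of 0.07 over 29 genes, 3 higher and 2 lower at p under 0.05. The higher genes included Trim63 (MuRF1), a ubiquitin ligase of the sarcomere, at 91.5, 118 and 104 in sham and 139.5, 169 and 174 in TAC. They also included Myot, a Z-disc protein, at 8.38, 15.9 and 18.8 against 18.1, 30.4 and 53.4, whose groups overlapped. Synpo2l, another Z-disc protein, measured 19.7, 16.2 and 17.5 in sham and 22.1, 24.9 and 46.8 in TAC. Tnnc1, cardiac troponin C, differed by 0.23 ± 0.28, less than its error. Ventricular myocyte markers as a whole had a median of -0.13, with 11 of 14 below 0, and -0.04 without TAC replicate 3 or -0.23 without TAC replicate 1. Atrial markers had a median of -0.01 over 11, and the atrial light chain Myl7 was low and scattered, at 3.18, 1.98 and 7.51 in sham and 0.403, 3.87 and 0 in TAC, listed at 0 in TAC replicate 3.

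**Figure D3:**
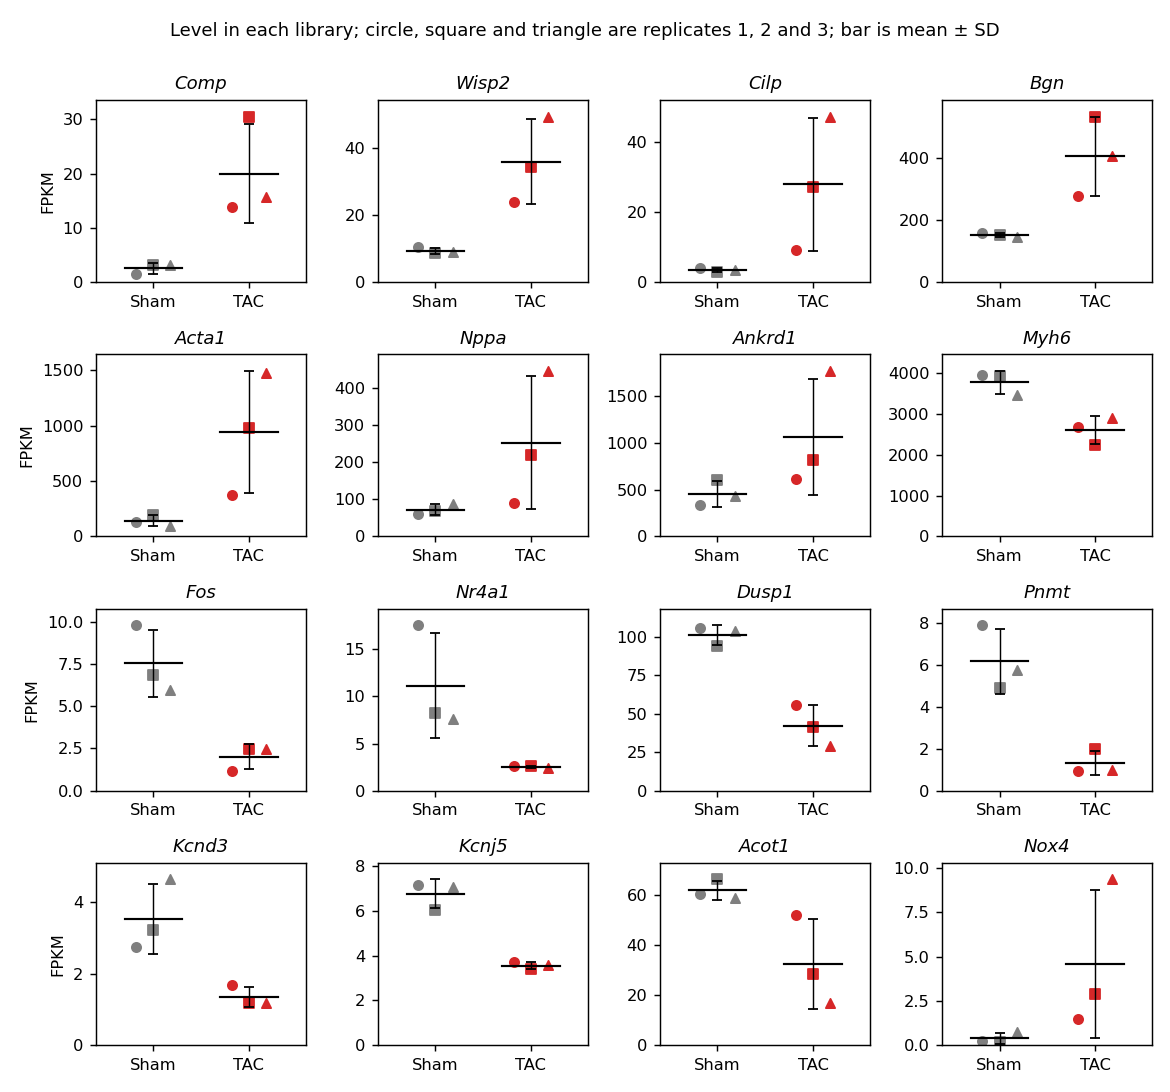
FPKM (vertical axes, from 0) of 16 genes in each sham library (grey) and TAC library (red), with the mean and SD over 3 mice of each group. None of the 16 has overlapping groups, which for Nox4 the filter on low values had fixed. The matrix and stretch genes and Nox4 spread more widely in TAC than in sham, while Kcnj5 and Nr4a1 sit close together in TAC.

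Matricellular proteins, secreted into the matrix to act on cells more than to bear load, were mostly higher in TAC. Comp (chr8:70373558-70382066 on GRCm38 in GENCODE M21), a thrombospondin-family protein that binds collagen, measured 1.46, 3.15 and 3.23 FPKM in sham and 13.9, 30.5 and 15.7 in TAC. It had the smallest limma adjusted p of all genes (0.0803) and a difference of 2.5 ± 0.36, and TAC replicate 2 was highest. Wisp2 (Ccn5, chr2:163820752-163833146), a CCN-family matricellular protein, measured 10.4, 8.69 and 9.00 in sham and 24, 34.4 and 49.3 in TAC (1.78 ± 0.27, limma adjusted p = 0.0803). Sham values of Wisp2 were tightly grouped, and every TAC library was above 2-fold of their mean. Cilp (chr9:65265180-65280605), a matrix protein first known from cartilage, measured 4.2, 2.82 and 3.46 in sham and 9.34, 27.2 and 47.2 in TAC (2.44 ± 0.45, limma adjusted p = 0.13). TAC replicate 1 was lowest of the TAC hearts for each of these 3 genes, and still above all sham hearts.

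Thbs4, another thrombospondin, overlapped because of sham replicate 2: it measured 0.655, 2.02 and 0.378 in sham and 1.71, 7.93 and 19.1 in TAC (2.05 ± 0.55). Postn, periostin, a hallmark of activated fibroblasts, measured 20.9, 9.86 and 7.70 in sham and 11.4, 41.7 and 194 in TAC (1.88 ± 0.72). Its TAC replicate 1 lay within the sham range and replicate 3 far above. Ctgf (Ccn2), a CCN protein induced by TGF-beta and stretch, had the same layout at 35.7, 49.7 and 31.5 against 36.1, 96.2 and 111 (0.91 ± 0.37). Spp1, osteopontin, was low in sham, at 0, 0.166 and 0.648, and measured 1.29, 1.46 and 3.10 in TAC (1.2 ± 0.37), passing the filter through TAC alone. Of 23 tested matricellular genes, 20 lay above 0, 13 were higher at p under 0.05, 8 were higher without overlap and none was lower, with a median of 0.73.

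Several proteoglycans were higher in TAC, among them the small leucine-rich ones, which bind collagen fibrils and set their spacing. Bgn, biglycan (chrX:73483602-73495933), measured 158, 151 and 145 FPKM in sham and 277, 529.9 and 407 in TAC (1.36 ± 0.24, limma adjusted p = 0.112). Dcn, decorin, the most abundant of the 17 tested proteoglycans, measured 336, 337 and 259 and 438, 915 and 706 (1.09 ± 0.28), and neither gene's groups overlapped. Fmod, fibromodulin (chr1:134037254-134048277), was low in sham at 0.965, 1.40 and 1.08 and measured 4.79, 11.1 and 4.53 in TAC (1.77 ± 0.33, limma adjusted p = 0.139). Ogn, osteoglycin, overlapped through TAC replicate 1, at 41.0, 37.4 and 24.4 against 32.4, 109.5 and 97.3. Over 17 tested proteoglycans the median was 0.68, with 7 higher and none lower at p under 0.05.

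The collagen list, named fibrillar collagens in the figures, held chains that form fibres and chains that do not, such as Col8a1. Col1a1, the main type I chain, measured 15.3, 11 and 14.1 in sham and 12.5, 17.1 and 22.1 in TAC (0.31 ± 0.29). Col3a1, type III collagen, measured 56.2, 27.7 and 27.6 against 25.2, 45.8 and 94.6 (0.44 ± 0.41). Both overlapped, with TAC replicate 1 inside or below the sham range and replicate 3 highest. Col1a2 had the same layout at 32.7, 20.8 and 22.3 against 21.6, 41.2 and 66.8. Col8a1, a short-chain collagen, was the only member higher at p under 0.05, at 3.49, 4.35 and 2.60 against 4.21, 9.68 and 22.4 (1.3 ± 0.44). Of 13 members, 12 lay above 0 and none were without overlap. The median of 0.31 became 0.08 when TAC replicate 3 was left out and 0.51 when TAC replicate 1 was. The list means were -0.08, 0.22 and 1.04 in the TAC libraries against 0.26, -0.18 and -0.08 in sham, so only TAC replicate 3 exceeded every sham library. These genes are long, with a median length of 6593 bases, a class that ran high in TAC replicate 3. Fn1, fibronectin, measured 5.2, 4.70 and 4.50 in sham and 3.74, 6.14 and 13 in TAC (0.43 ± 0.34), again highest in replicate 3.

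Collagen processing and crosslinking genes were partly higher. Pcolce2, an enhancer of procollagen cleavage, measured 10.4, 8.34 and 6.98 in sham and 16.5, 21.9 and 20.3 in TAC (1.11 ± 0.25, limma adjusted p = 0.367). Lox, lysyl oxidase, which crosslinks collagen and elastin, measured 1.45, 1.63 and 1.5 and 1.66, 5.99 and 13.3 (1.35 ± 0.50), where TAC replicate 1 was barely above sham. Loxl1, its relative needed for elastic fibres, measured 15.2, 13.9 and 14.8 and 18.4, 32.1 and 26.7. Over 22 genes the median was 0.17, or 0.29 without TAC replicate 2, with 4 higher and 1 lower at p under 0.05.

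Among elastic fibre genes, Mfap4, a microfibril-associated glycoprotein, measured 17.8, 14.3 and 15.4 in sham and 32.9, 76.0 and 33.2 in TAC (1.41 ± 0.31, limma adjusted p = 0.35). Its annotated exons overlap those of Mapk7, so reads there cannot be told apart. Ltbp2, a microfibril protein of the latent TGF-beta binding family, measured 1.44, 0.550 and 0.304 and 1.93, 4.63 and 8.80 (1.68 ± 0.41), all TAC above all sham. Mfap5 overlapped by a narrow margin, at 29.1, 17.6 and 19.2 against 29.0, 62.4 and 68.8. The list median was 0.45, 14 of 15 members lay above 0, and leaving out TAC replicate 3 or 1 gave 0.21 and 0.72. Basement membrane genes, the sheet matrix around cells, showed no such lean: the median was -0.01 over 20 genes and none had a p under 0.05, although Lama2, the muscle laminin chain, was higher without overlap at 5.92, 4.99 and 4.60 against 6.12, 6.85 and 10.2.

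Matrix turnover genes included Timp1, an inhibitor of matrix metalloproteinases, at 3.78, 1.08 and 6.26 FPKM in sham and 8.42, 8.46 and 16.8 in TAC (1.49 ± 0.41). All TAC hearts were above all sham hearts. Serpinf1, an anti-angiogenic secreted serpin, measured 14.8, 20.1 and 16.9 and 16.7, 50.4 and 53.9 (1.02 ± 0.37) and overlapped. Adamts1, a protease of large proteoglycans, was the member lower at p under 0.05, at 10.5, 7.75 and 4.43 against 1.93, 5.15 and 1.92 (-1.13 ± 0.40), with overlap. The median of the 24 turnover genes was 0.49, or 0.30 without TAC replicate 3.

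Genes that mark fibroblasts were higher as a group. Of 21 tested markers of resting cardiac fibroblasts, all 21 lay above 0, 10 were higher at p under 0.05, 5 without overlap and none was lower, with a median of 0.61. These markers include Dcn, Col1a1, Col1a2, Col3a1 and Mfap5 of the matrix lists above, and Ly6c1, also an endothelial marker. The resting list is therefore not a separate result from them. Tcf21, the transcription factor of cardiac fibroblasts, measured 8.73, 9.67 and 6.18 in sham and 14, 22.1 and 19.4 in TAC (1.08 ± 0.26), and Pi16, a marker of adventitial fibroblasts, measured 46.3, 34.8 and 30.6 and 50.5, 68.1 and 72.3. Of 18 markers of activated fibroblasts, all 18 lay above 0, 16 at p under 0.05 and 11 without overlap. The list shares Comp, Cilp, Wisp2, Fmod, Mfap4, Postn, Thbs4, Fn1, Lox, Col8a1, Ltbp2 and Timp1 with the matrix genes described above. It also shares Sfrp2 with the Wnt list below. The activated list therefore does not count again as a separate result. Its median of 1.5 was the highest of all lists, and its mean was 0.76, 1.70 and 2.02 in the TAC libraries, lowest in TAC replicate 1. Since the lists were written with earlier results of these data known, this rank is a description and not a test.

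Meox1, a homeobox factor of activated fibroblasts, measured 15.3, 12.6 and 7.42 FPKM in sham and 17.7, 28.5 and 44.1 in TAC (1.25 ± 0.34), and Scx, a factor of tendon and matrix-producing cells, measured 4.67, 5.76 and 3.79 and 6.09, 12.8 and 9.56. Both were higher without overlap. Itgbl1, a secreted integrin-like protein, measured 2.09, 2.42 and 1.05 and 2.51, 7.79 and 15.5 (1.52 ± 0.45), with TAC replicate 1 just above sham. Mkl1 (Mrtfa), the actin-sensing partner of serum response factor, went the other way, at 3.85, 5.84 and 6.58 against 2.39, 3.12 and 2.53 (-0.78 ± 0.29). Nox4, an oxidase that makes hydrogen peroxide, was near the detection limit in sham at 0.215, 0.179 and 0.726 and measured 1.49, 2.86 and 9.36 in TAC (1.78 ± 0.44), so that it passed the filter through TAC alone. Fibin (chr2:110360917-110363183), a secreted protein known from fin bud development, measured 3.84, 3.29 and 2.73 and 6.10, 24.9 and 21.5 (1.91 ± 0.41, limma adjusted p = 0.311).

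TGF-beta ligands, which drive matrix production in fibroblasts, differed by type. Tgfb3 measured 6.85, 5.72 and 8.02 in sham and 8.65, 12.3 and 18.4 in TAC (0.80 ± 0.28) and Tgfb2 measured 2.03, 2.36 and 2.30 and 2.85, 3.66 and 4.51 (0.52 ± 0.27), neither with overlap. Tgfb1 overlapped at 24.4, 13.6 and 21.7 against 17.8, 21.9 and 27.3 (0.18 ± 0.26). Gdf15, a stress-induced ligand of the same superfamily, measured 3.30, 3.13 and 0.956 and 3.64, 6.31 and 3.57 (0.72 ± 0.34) and was higher without overlap by a narrow margin. The pathway median was 0.24 over 27 genes, 22 above 0, with 2 higher and none lower at p under 0.05, and it was 0.09 without TAC replicate 3.

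Of the Wnt list, the 4 members of smallest p are described first. Sfrp4, a frizzled-related decoy, was listed at 0 in every sham library and measured 1.22, 1.38 and 1.77 in TAC, at least 20.1-fold higher when the floor is 3 fragments over the sham group. Sfrp2, another decoy, measured 1.6, 0.787 and 0.295 in sham and 3.19, 17.9 and 4.51 in TAC (2.06 ± 0.53). Dkk3, of the Dickkopf family, measured 1.69, 1.35 and 0.878 and 2.54, 6.76 and 8.18 (1.47 ± 0.38), and Nkd1, an intracellular brake and target of the pathway, 0.371, 0.942 and 0.874 and 3.52, 2.08 and 1.65 (0.96 ± 0.30). Sfrp2 and Dkk3 did not overlap, and Sfrp4 and Nkd1 could not, since they passed the filter through TAC alone. Frzb, chosen after its values were seen, did overlap at 1.85, 1.65 and 1.61 against 1.71, 8.15 and 12.1. The Wnt list had a median of 0.35 over 20 genes, 5 higher and none lower at p under 0.05. The 5 include Sfrp4 and Nkd1, which entered through TAC alone. The direction of the list was not stable: the median was 0.11 without TAC replicate 2, 0.22 without TAC replicate 3 and -0.15 over members that reached an FPKM of 5.

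**Figure D4:**
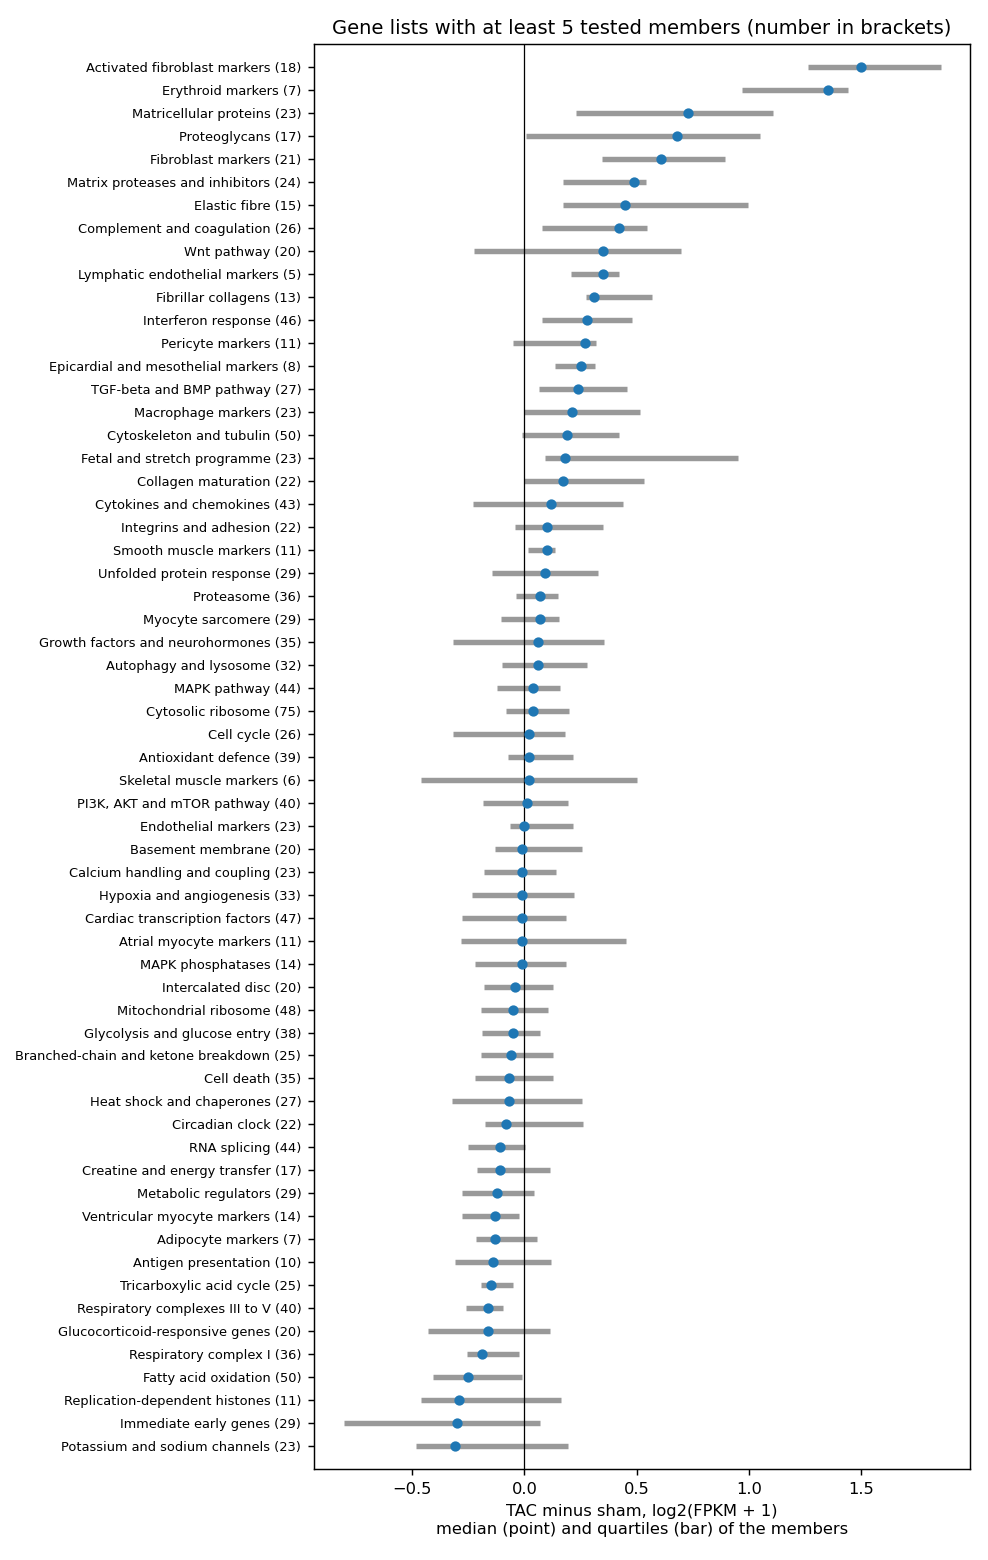
Median TAC minus sham log2 difference (points) with the quartiles of the members (bars) for every gene list with at least 5 tested members, the number of members in brackets. Activated fibroblast markers lie furthest to the right at 1.5, and potassium and sodium channels and immediate early genes furthest to the left at -0.31 and -0.30, while the median over all tested genes was 0.00.

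Other cell types of the heart were read from their own markers. Macrophage markers had a median of 0.21 over 23 genes, with 16 above 0 and 7 below it. At p under 0.05, 3 were higher (Spp1, Mrc1 and Cx3cr1) and 0 lower. The marker Ms4a7 went the other way, at -0.88 to -0.43 with single libraries left out. Spp1 had passed the filter through TAC alone. The mannose receptor Mrc1 measured 9.03, 5.22 and 2.88 in sham and 7.94, 11.8 and 16.1 in TAC. The fractalkine receptor Cx3cr1 measured 3.03, 0.881 and 0.787 in sham and 2.28, 4.16 and 4.61 in TAC. Mrc1 and Cx3cr1 overlapped because sham replicate 1 was high. Endothelial markers had a median of 0.00 over 23 genes with none at p under 0.05, and smooth muscle markers 0.10 over 11. Higd1b, a pericyte marker, measured 9.93, 13.6 and 15.7 and 23.3, 24.4 and 22 (0.81 ± 0.23), without overlap, whereas the pericyte list had a median of 0.27, or 0.16 without TAC replicate 2 and 0.18 without sham replicate 3.

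Erythroid genes followed single libraries. Hbb-bs, adult beta-globin, measured 215, 726 and 1063 in sham and 890.1, 3903 and 1075 in TAC, and TAC replicate 2 alone lay far above sham. The near-identical globin copies could share reads. The erythroid median of 1.35 was 0.57 without TAC replicate 2 and 0.59 without sham replicate 1. Of 12 neutrophil, 15 T and NK cell, 10 B cell and 8 mast cell markers, 3, 3, 1 and 2 passed the filter, and their part in any result was not tested.

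Immediate early genes, which stimuli switch on within minutes, were mostly lower in TAC. The 4 promoters below are shown because these genes had the smallest p of the list. They are the 250 bases before the RefSeq start on GRCm38.p6: Fos at chr12:85473640-85473889 (plus strand), Nr4a1 at chr15:101266596-101266845 (plus strand), Dusp1 at chr17:26508473-26508722 (minus strand) and Btg2 at chr1:134079156-134079405 (minus strand). Capitals mark the cyclic AMP response element (CRE) TGACGTCA, its core TGACG, which reads CGTCA on the other strand, and the TATA box TATAAA, searched on both strands. Every full CRE holds 2 overlapping core matches.
Fos: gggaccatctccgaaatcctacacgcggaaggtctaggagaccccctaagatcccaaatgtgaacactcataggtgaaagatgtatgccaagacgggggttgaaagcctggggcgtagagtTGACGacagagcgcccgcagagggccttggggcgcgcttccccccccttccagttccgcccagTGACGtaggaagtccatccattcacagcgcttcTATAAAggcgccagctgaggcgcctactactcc
Nr4a1: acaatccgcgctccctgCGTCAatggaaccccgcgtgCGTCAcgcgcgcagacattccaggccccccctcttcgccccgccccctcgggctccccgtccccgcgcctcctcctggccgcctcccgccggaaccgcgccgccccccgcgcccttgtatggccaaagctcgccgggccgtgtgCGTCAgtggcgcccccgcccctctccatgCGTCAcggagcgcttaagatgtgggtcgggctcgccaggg
Dusp1: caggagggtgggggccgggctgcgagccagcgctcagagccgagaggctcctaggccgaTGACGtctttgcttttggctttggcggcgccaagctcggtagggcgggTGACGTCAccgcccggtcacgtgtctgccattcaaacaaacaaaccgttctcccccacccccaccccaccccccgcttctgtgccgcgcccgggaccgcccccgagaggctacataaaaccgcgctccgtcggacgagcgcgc
Btg2: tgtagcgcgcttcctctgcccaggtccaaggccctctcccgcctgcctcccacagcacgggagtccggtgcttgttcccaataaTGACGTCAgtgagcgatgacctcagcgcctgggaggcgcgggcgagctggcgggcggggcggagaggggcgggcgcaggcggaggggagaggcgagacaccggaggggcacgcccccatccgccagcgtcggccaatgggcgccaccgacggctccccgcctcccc
Dusp1 and Btg2 hold a full CRE, which begins 143 and 166 bases before the start. Fos holds core matches that begin 129 and 66 bases before the start and a TATA box at 33, and Nr4a1 holds 4 core matches. Of the 22 list members with a promoter entry, 11 (50%) held the core and 2 (9.09%) the full CRE, against 27.8% and 2.74% of 8518 promoters of tested genes.

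Fos, a subunit of the AP-1 factor, measured 9.79, 6.84 and 5.97 FPKM in sham and 1.14, 2.44 and 2.45 in TAC (-1.51 ± 0.31, limma adjusted p = 0.279). Nr4a1, an orphan nuclear receptor, measured 17.5, 8.22 and 7.59 in sham and 2.58, 2.62 and 2.44 in TAC (-1.68 ± 0.42), where the TAC values were nearly alike and sham replicate 1 was high. Dusp1, a phosphatase that switches off MAP kinases, measured 106, 94.2 and 104 and 56.0, 41.5 and 29.3 (-1.29 ± 0.29, limma adjusted p = 0.367), so every TAC heart was below every sham heart. Its annotated exons overlap those of Ergic1. Btg2, an antiproliferative gene, measured 27.0, 25.6 and 22.5 and 9.80, 16.4 and 11.5 (-0.96 ± 0.25), and Egr1, a zinc finger factor, 43.2, 26.2 and 19.5 and 8.79, 16.4 and 7.41 (-1.37 ± 0.38). Neither overlapped.

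Of 29 tested members, 20 lay below 0, 10 were lower at p under 0.05 and 8 lower without overlap, with a median of -0.30. Not all members shared this direction. Chosen after their values were seen, Gadd45b, a stress-response gene, measured 13.3, 16.7 and 17.5 in sham and 25.2, 30.5 and 61.7 in TAC (1.15 ± 0.32), and Maff, a small basic leucine zipper factor, 6.89, 7.79 and 6.46 and 11.8, 14.8 and 10.7 (0.73 ± 0.29). Both were higher without overlap. Klf2, a factor of endothelium under flow, Ier2 and Junb were also looked at afterwards: Klf2 measured 144, 99.8 and 158 in sham and 82.2, 90.6 and 61.3 in TAC, without overlap. Ier2 measured 154, 76.6 and 107 and 50.9, 54.1 and 77.7, and Junb 56.5, 29.9 and 35.8 and 15.3, 19.9 and 35.0, each with overlapping groups. The list means were -0.57, -0.21 and -0.24 in the TAC libraries against 0.11, -0.07 and -0.04 in sham, so this list was lowest in TAC replicate 1, the heart nearest to sham for the matrix lists. The labels gave no time of day or time from death to freezing, and their part in the result was not tested.

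RNA of kinases of the pathways named by the title of the study gave small differences. Mapk3 (ERK1) measured 85.0, 83.7 and 91.2 in sham and 109.7, 93.9 and 86.4 in TAC, with overlap. Mapk8 (JNK1) was lower without overlap, at 5.42, 5.16 and 5.13 against 4.07, 3.36 and 4.86 (-0.30 ± 0.25, limma adjusted p = 0.996). Mapk14 (p38 alpha) did not pass the filter and measured at most 0.566. Of 44 MAPK pathway genes, 24 lay above 0, 1 was higher and 1 lower at p under 0.05, near the background shares, with a median of 0.04. Rps6ka1 (RSK1), a kinase downstream of ERK, was the lower gene at 5.34, 3.15 and 5.02 against 3.11, 1.36 and 1.63 (-0.88 ± 0.32), and Spry1, an inhibitor of receptor tyrosine kinase signalling, the higher gene at 14.5, 17.7 and 23.8 against 24.7, 29.7 and 25.6 (0.52 ± 0.24). Map2k1 (MEK1) was lower without overlap at 15.3, 14.1 and 14.5 against 8.26, 9.41 and 12.8.

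Akt1 measured 55.9, 39.3 and 39.7 in sham and 35.1, 47.8 and 49.9 in TAC (-0.02 ± 0.26) and overlapped. Akt2, the isoform of insulin-driven glucose uptake, was lower without overlap, by a narrow margin in TAC replicates 1 and 2, at 27.1, 29.4 and 26 against 25.3, 25.4 and 15.3 (-0.34 ± 0.25, limma adjusted p = 0.996). Mtor overlapped at 1.2, 1.01 and 1.15 against 0.706, 0.461 and 1.19. Pik3ip1, an inhibitor of PI3 kinase, was higher without overlap at 15.2, 24.6 and 23.6 against 36.4, 40.1 and 29.3 (0.73 ± 0.25), as was the AKT phosphatase Phlpp1 at 5.01, 5.00 and 5.33 against 7.54, 6.75 and 9.25. Irs1, the insulin receptor substrate, was lower without overlap at 2.96, 2.47 and 2.07 against 1.36, 1.63 and 1.12 (-0.56 ± 0.27). The PI3K, AKT and mTOR list had a median of 0.01 over 40 genes, with 1 higher and none lower at p under 0.05. Phosphorylation, by which these kinases are switched on, was not measured.

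Ion channels of the action potential were mostly lower. Kcnj5, a subunit of the acetylcholine-gated potassium channel, measured 7.18, 6.02 and 7.10 FPKM in sham and 3.70, 3.40 and 3.56 in TAC (-0.77 ± 0.26), and Kcnd3 (Kv4.3), which carries transient outward current, 2.74, 3.23 and 4.64 and 1.68, 1.19 and 1.18 (-0.93 ± 0.34). Neither channel's groups overlapped, and the TAC hearts were close to each other. The partners of Kcnd3 in that current, Kcnd2 at 4.61, 5.00 and 2.84 against 4.27, 4.50 and 7.14 and Kcnip2 at 35.0, 38.7 and 44.2 against 53.4, 28.3 and 31.4, overlapped. Of 23 channel genes, 15 lay below 0, 3 were lower and none higher at p under 0.05, with a median of -0.31.

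Calcium cycling genes showed no common lean. Atp2a2 (SERCA2), the calcium pump of the sarcoplasmic reticulum, measured 922, 835 and 636 in sham and 537, 675 and 793 in TAC (-0.26 ± 0.23). Its inhibitor Pln, phospholamban, measured 1019, 972 and 882 and 896, 1000 and 949 (-0.01 ± 0.20), and the release channel Ryr2 36.3, 39.0 and 37.4 and 33.7, 31.3 and 41.1 (-0.10 ± 0.24). All 3 overlapped. The list of 23 genes had a median of -0.01 and none at p under 0.05. Of gap junction genes, Gja3 (connexin 46) was lower without overlap at 5.97, 2.93 and 5.75 against 2.59, 1.19 and 2.2 (-0.96 ± 0.34), and the intercalated disc list had a median of -0.04.

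Fatty acid use was modestly lower as a list: of 50 tested genes 38 lay below 0, 3 were lower and none higher at p under 0.05, and 7 were lower without overlap, with a median of -0.25. Acot1, which frees fatty acids from coenzyme A and has near-identical neighbours that could share reads, measured 60.4, 66.0 and 58.6 in sham and 52.0, 28.1 and 16.6 in TAC (-1.06 ± 0.34). Plin5, a lipid droplet coat protein of oxidative tissue, measured 86.7, 79.7 and 70.0 and 46.7, 51.2 and 57.8 (-0.59 ± 0.22). Dgat2, which completes triglyceride synthesis, measured 204, 208 and 184 and 148, 165 and 73.6 (-0.70 ± 0.30). For Acot1 and Dgat2 the lowest value was that of TAC replicate 3, whereas Plin5 was lowest in TAC replicate 1. Cpt1b, the gate of fatty acids into mitochondria, overlapped at 339, 292 and 353 against 286, 204 and 294 (-0.34 ± 0.23), and so did Pdk4, which spares glucose, at 454, 548 and 444 against 384, 638 and 638. Without TAC replicate 3 the list median was -0.08.

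Regulators of these genes were split. Esrra, a nuclear receptor that drives mitochondrial genes, was lower without overlap at 159, 114 and 143 against 85.3, 80.6 and 106 (-0.61 ± 0.24), and its coactivator Ppargc1b was lower at p under 0.05 with overlap, at 9.52, 5.28 and 6.74 against 5.32, 3.09 and 4.36. Ppargc1a, the better known coactivator, measured 9.23, 10.4 and 7.22 in sham and 6.54, 9.41 and 13.6 in TAC (0.09 ± 0.33), and Ppara, the receptor for fatty acid derivatives, 2.53, 3.10 and 3.13 and 2.86, 2.55 and 2.39. Neither differed beyond its error. Bdh1, which uses ketone bodies, was higher without overlap at 10.9, 9.88 and 6.91 against 14.5, 23.4 and 19.4 (0.97 ± 0.32). Pygm, muscle glycogen phosphorylase, was lower without overlap at 5.39, 2.78 and 3.46 against 1.70, 1.90 and 1.34 (-0.85 ± 0.29), in a glycolysis list with a median of -0.05.

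Nuclear genes of the respiratory chain lay slightly below sham. Of 40 genes of complexes III to V, 36 lay below 0 with a median of -0.16, and of 36 complex I genes 29 lay below 0 with a median of -0.19. Uqcr11, a complex III subunit, measured 4431, 3679 and 3733 in sham and 2934, 3029 and 2672 in TAC (-0.45 ± 0.20), and Atp5g2, an ATP synthase subunit, 202, 245 and 213 and 173, 172 and 91.4 (-0.65 ± 0.28). These 2 were the members lower at p under 0.05. The genes are short, with a median length of 739 bases in complexes III to V and 744 in complex I, the class that was low in TAC replicate 3. List means for complexes III to V were -0.10, 0.01 and -0.44 in TAC, and without TAC replicate 3 the medians were -0.04 and -0.04. Without sham replicate 2 the median of complexes III to V was -0.09. Tricarboxylic acid cycle genes had a median of -0.15, or -0.03 without that library, -0.28 without TAC replicate 2 and -0.03 without sham replicate 2.

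**Figure D5:**
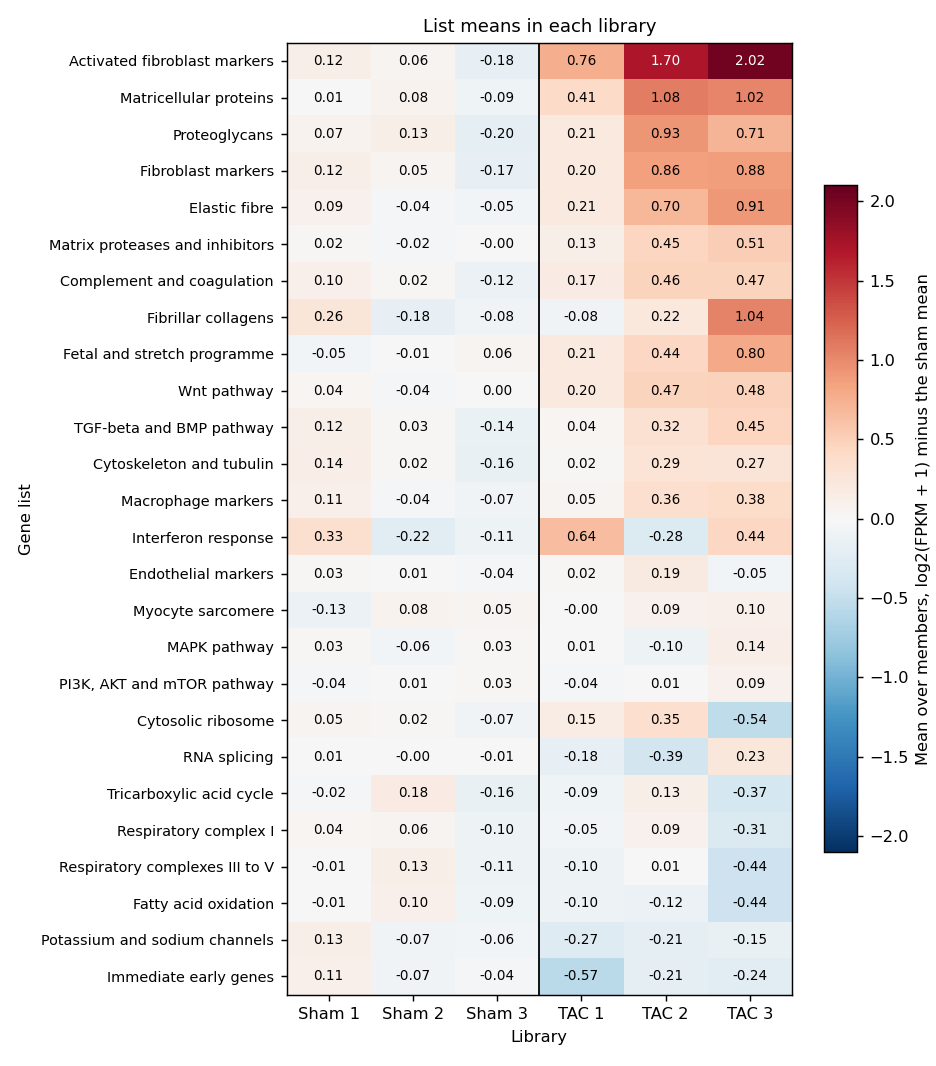
Mean deviation of list members from the sham mean on the log2(FPKM + 1) scale, for 26 gene lists (rows) in the 6 libraries (columns), red above and blue below the sham mean. Activated fibroblast markers reach 0.76, 1.70 and 2.02 in the TAC libraries, immediate early genes are lowest in TAC replicate 1 at -0.57, and the cytosolic ribosome and respiratory lists are lowest in TAC replicate 3.

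Cytosolic ribosome genes are short too, with a median length of 867 bases. Cytosolic ribosome genes had a median of 0.04 over 75 genes, but list means of 0.15, 0.35 and -0.54 in the TAC libraries, and a median of 0.33 without TAC replicate 3. Rps28, a small-subunit protein, had the largest negative difference among genes without overlap, at 194, 150.0 and 208 in sham and 70.3, 128 and 2.42 in TAC (-2.54 ± 0.93). Its processed copies and the overlapping exons of Kank3 could share its reads, and TAC replicate 3 lay far below the other pair. Folding genes of the endoplasmic reticulum had a median of 0.09, and their sensor kinase Eif2ak3 (PERK) was higher without overlap at 2.08, 2.06 and 2.48 against 4.03, 3.59 and 3.99 (0.60 ± 0.26). Sec23b, a coat protein of vesicles that leave the endoplasmic reticulum, measured 2.15, 2.26 and 2.5 and 5.90, 5.67 and 7.10 (1.13 ± 0.27, limma adjusted p = 0.454), so each TAC heart exceeded 2-fold of every sham heart.

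Immune and plasma-type genes gave a mixed picture. Complement and coagulation genes had a median of 0.42 over 26, with 5 higher and none lower at p under 0.05, and medians of 0.23 and 0.22 without TAC replicates 2 and 3. Serpina3n, a secreted inhibitor of serine proteases, measured 4.73, 6.29 and 7.23 in sham and 13.8, 12.2 and 9.24 in TAC (0.84 ± 0.26), and C1ra, a protease of the classical complement pathway, 8.04, 8.97 and 7.37 and 17.2, 14.5 and 9.01. Both were higher without overlap.

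Interferon response genes had a median of 0.28 over 46 genes with 35 above 0, and 2 higher at p under 0.05. Leaving out TAC replicate 1, 2 or 3 gave medians of 0.08, 0.56 and 0.15, and the median was 0.44 and 0.17 without sham replicates 1 and 2. Mean deviations of the list from the sham mean were 0.33, -0.22 and -0.11 in the sham libraries against 0.64, -0.28 and 0.44 under TAC, so libraries within a group spread more widely than the group means. Of 34 members with a promoter entry, 16 (47.1%) held the interferon-stimulated response element motif, searched as 2 copies of GAAA with 2 bases between them, in the 250 bases before the start on either strand, against 2.55% of all 8518. Cmpk2, an interferon-induced mitochondrial kinase, measured 7.98, 7.99 and 6.40 in sham and 11.9, 10.0 and 18.5 in TAC (0.74 ± 0.29), without overlap. Il34, a ligand of the macrophage growth factor receptor, was higher without overlap at 2.47, 2.98 and 2.88 against 4.55, 4.79 and 7.43 (0.78 ± 0.30), as were Cxcl14, a chemokine, at 4.61, 2.18 and 3.21 against 7.09, 10.6 and 6.06, and the TNF receptor Tnfrsf1b at 2.96, 2.27 and 3.75 against 4.72, 5.69 and 5.52. Ccl27a, also a chemokine, was lower at 8.80, 7.93 and 11.5 against 3.52, 5.79 and 4.66 (-0.89 ± 0.27). Il6 was listed at 0 in all 6 libraries. H2-K1, a class I molecule whose reads near-identical family members could share, was scattered in sham at 1.71, 15.8 and 11.4 and measured 0.894, 0.930 and 1.81 in TAC, with overlap.

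Cytoskeletal and secreted signalling genes added smaller differences. The cytoskeleton list had a median of 0.19, or 0.11 without sham replicate 3, over 50 genes with 7 higher and none lower at p under 0.05. Anxa2, a membrane-binding annexin, measured 66.8, 57.8 and 55.4 in sham and 88.1, 119 and 75.6 in TAC (0.62 ± 0.23). S100a6, a calcium-binding protein of the S100 family, measured 83.9, 80.4 and 93.7 in sham and 136, 188 and 118 in TAC. Neither gene's groups overlapped. Vim, vimentin, overlapped at 244, 198 and 165 against 239, 386 and 362 (0.69 ± 0.24). Igfbp6, a binder of insulin-like growth factor 2, was higher without overlap at 36.9, 41.6 and 36.2 against 49.9, 104 and 78.7 (0.94 ± 0.28), and so was Ace, the angiotensin-converting enzyme, at 6.36, 9.81 and 8.78 against 13, 15.8 and 15.8 (0.78 ± 0.28). Gpx3, the secreted glutathione peroxidase, was higher in every TAC heart, at 259.9, 328 and 412 against 484, 677 and 563 (0.80 ± 0.23).

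Pnmt, which converts noradrenaline to adrenaline, was lower in every TAC heart, at 7.89, 4.88 and 5.75 FPKM in sham and 0.938, 1.97 and 1.0 in TAC (-1.65 ± 0.33, limma adjusted p = 0.21). Apln, the gene of the peptide hormone apelin, was lower at p under 0.05 but overlapped, at 5.01, 0.875 and 2.69 against 0.113, 1.88 and 0.0709. Clock output genes were divided: Dbp was higher without overlap at 2.63, 2.98 and 5.43 against 7.22, 8.66 and 6.90 (0.92 ± 0.32) and its relative Hlf lower without overlap at 3.44, 3.29 and 2.57 against 2.17, 2.40 and 0.269 (-0.77 ± 0.38), in a clock list with a median of -0.08. Glucocorticoid-responsive genes, which include Pnmt and Dusp1, had a median of -0.16 with 4 of 20 lower and none higher at p under 0.05, and its median ranged from -0.36 to 0.01 over the alternatives.

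Further genes with a small p or a large difference lay outside the groups above. Gxylt2, a glycosyltransferase, was near the detection limit in sham at 0.115, 0.311 and 0.701 and, passing the filter through TAC alone, measured 2.69, 2.62 and 1.94 in TAC (1.33 ± 0.30, limma adjusted p = 0.367). Sfxn3, a mitochondrial carrier, measured 10.8, 6.86 and 8.01 and 17.9, 21.6 and 24.6 (1.24 ± 0.29, limma adjusted p = 0.424).

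On the lower side, Hist1h3d, a replication-dependent histone H3 gene whose RNA usually lacks the poly-A tail by which these libraries were selected, measured 4.82, 4.24 and 3.20 in sham and 0.944, 0 and 0 in TAC (-2.01 ± 0.36, limma adjusted p = 0.112). Upk1a, a uroplakin, measured 2.19, 1.53 and 2.16 in sham and was listed at 0 in every TAC library, at least 27.8-fold lower when the floor is 3 fragments over the TAC group. Pmf1, a kinetochore gene, measured 9.26, 6.76 and 10.0 and 2.42, 2.62 and 0 (-2.05 ± 0.44), and Ctrl, a chymotrypsin-like protease, 4.85, 2.71 and 4.08 and 0, 0.454 and 0 (-2.08 ± 0.49), both listed at 0 in at least 1 TAC library. Cryba4, a crystallin gene, was closely grouped in sham, at 19.1, 20.5 and 20.7 in sham and 9.22, 11.6 and 5.55 in TAC (-1.16 ± 0.26). Epha2, an ephrin receptor, measured 5.15, 2.79 and 4.97 and 1.11, 1.64 and 1.12 (-1.18 ± 0.29), and Cmtm5 9.74, 7.03 and 6.00 and 2.73, 2.13 and 3.26 (-1.2 ± 0.27). Mzb1, a gene of antibody-secreting B cells, measured 1.8, 2.29 and 2.80 and 0.542, 0.350 and 0 (-1.36 ± 0.29) and shares annotated exons with a neighbouring gene. Gchfr, a regulator of tetrahydrobiopterin synthesis, measured 6.14, 4.93 and 12.6 and 1.51, 3.85 and 0, and Psmg1, a proteasome assembly chaperone, 6.22, 6.78 and 3.55 and 1.45, 0.375 and 1.13. Hist1h3d, Upk1a, Ctrl and Mzb1 passed the filter through the sham libraries alone, so their groups could not overlap. The groups of the other lower genes did not overlap, and the lowest of all these values rest on few fragments. TAC replicates 1 and 3 were also the libraries of lowest depth, which makes a value of 0 likelier there.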

How the data were processed

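RNA of mouse hearts was selected by poly-T, primed with random hexamers and sequenced, per the labels' protocols, which name no strand-marking step. FPKM values per gene symbol were made by the authors and analysed as deposited. The submitters' processing notes name HISAT2 2.1.0, Cufflinks 2.2.1, fastp 0.20.0, DESeq, CASAVA 1.8, HTSeq 0.7.2 and the build GRCm38, without roles, and the gene annotation is not given in the sources used here. Gene coordinates come from GENCODE M21 and promoters from RefSeq (GRCm38.p6), and 8518 tested genes had a promoter entry.

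Whole fragments were recovered from the steps between low FPKM values (tolerance 0.001). Groups were compared with limma 3.58.1 in R 4.3.3 on log2(FPKM + 1), with 9 libraries in 1 fit (6 residual degrees of freedom), a trend in the prior variance and Benjamini-Hochberg adjustment over 11044 genes. A log2 difference on this scale understates the change of low genes. The fit was tested on simulated data. The labels speak of biological repeats but do not tie libraries to litters, cages or days, and the part of these was not tested. The p-values set the group difference against the spread between hearts within groups, the LD hearts included. Replicate numbers were not taken as pairs, since no label ties same-numbered libraries to each other.

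Named genes are the 12 of smallest p and the 6 of largest difference without overlap in each direction (predicted names left out), each list's 4 members with the smallest p at most, a fixed set and the 10 most abundant genes, plus those marked as chosen after their values were seen. Some genes that this rule picks are not reported here. Members, lists and tests were chosen with earlier results of these data known. Of 137 tested genes named, 39 have annotated exons that overlap another gene, among them Tnni3 with Dnaaf3, Dbp with Sphk2, Esrra with Trmt112, Junb with Prdx2, Ccl27a with Il11ra1 and Pln with Cep85l, and reads there cannot be told apart. Alternatives covered the pseudocount, the filter, scaling, weights, voom, a replicate block and each library left out.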

Additional observations from a re-analysis of the deposited data

How the results depend on the processing

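With 3 mice a group and no record of the load applied, the data limit what can be said of single genes: 0 genes passed the adjusted threshold, and values near or below 1 FPKM rest on few fragments. The count of genes with an adjusted p under 0.05 by limma was 2 with a filter of 5 FPKM (Comp and Wisp2), 9 with array weights, 3 with voom on recovered fragments (those 2 and Acta1), and 0 to 14 with single libraries left out, most without TAC replicate 1. At p under 0.05, the stricter filter gave 194 higher and 152 lower genes, no filter gave 474 lower and array weights 509 lower, and leaving out libraries gave 183 to 574 higher and 170 to 554 lower. Without overlap, the stricter filter gave 369 higher and 291 lower and no filter 760 lower, and with a library fewer, which makes overlap rarer, 898 to 1680 were higher and 790 to 1452 lower. At 2-fold without overlap, a pseudocount of 0.25 gave 102 higher and 113 lower, 0.5 gave 84 lower, the stricter filter 29 and 18, and leaving out libraries 65 to 174 higher and 66 to 184 lower. The replicate block, used although no label pairs libraries by number, gave 0 genes at the adjusted threshold and 265 higher and 265 lower at p under 0.05. Deviations of same-numbered sham and TAC libraries correlated at -0.25, 0.16 and -0.20. The largest correlation was 0.388, between sham replicate 3 and TAC replicate 1. A day or batch shared across the groups was not tested.

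Of 137 named genes, 7 changed sign under some alternative, each with a difference smaller than 0.5. Pln was 0.01 with equal sums and ranged from -0.07 to 0.03 with single libraries left out, and Akt1 was 0.00 with equal sums, 0.03 with array weights and -0.11 to 0.15 with libraries left out. Ppargc1a was -0.01 with array weights and -0.15 to 0.32 with libraries left out. Mb was 0.00 with quantile normalisation. With libraries left out, Col3a1 ranged from -0.04 to 0.89, Tgfb1 from -0.06 to 0.34 and Kcnip2 from -0.38 to 0.07. The cause was not tested. The other 130 kept their direction under every alternative run. Of 61 lists with at least 5 tested members, 26 medians changed sign when a library was left out, none of them among the 27 lists with a median of at least 0.15 in size.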

Other observations

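Gene groups not described above mostly lay near the median of all genes. RNA splicing factors had a median of -0.11 with 32 of 44 members below 0, none higher and none lower at p under 0.05. Its list means were -0.18, -0.39 and 0.23 in the TAC libraries, and leaving out TAC replicate 2 or 3 gave medians of 0.04 and -0.30. Proteasome subunits had a median of 0.07 over 36 genes and mitochondrial ribosome genes one of -0.05 over 48. Heat shock proteins and chaperones had a median of -0.07, autophagy and lysosome genes 0.06, and antioxidant genes 0.02. Cell cycle genes, of which 26 of 51 were tested, had a median of 0.02 with none higher and 1 lower at p under 0.05. Cardiac transcription factors had a median of -0.01 over 47 genes. Epicardial and mesothelial markers had a median of 0.25 over 8, or 0.03 without TAC replicate 2, although Upk1a on that list was lower. Replication-dependent histones had a median of -0.29 over 11, which ranged from -0.41 to -0.01 over the alternatives. These genes are short, with a median length of 552 bases, and their RNA usually lacks the poly-A tail used for selection. List means were -0.54, -0.01 and -0.47 in the TAC libraries against 0.22, -0.19 and -0.03 in sham.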
